A study of Mus musculus with 2 samples.

Results

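The genes described here are 39 genes of DNA replication and S phase, the stretch of the cell cycle in which a cell copies its DNA. They were chosen by name and not by their measured values, though earlier results of these data were known at the time. Of the 39, 37 had a probeset, the set of probes that reads a transcript, paired with that gene alone, out of 22180 such genes on the array. For genes with several probesets the one with the highest mean over both arrays was used. Rfc4 and Ccne2 were read only by probesets shared with a neighbouring gene and have no value of their own.

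RNA was measured on GeneChip Mouse Gene 2.0 ST arrays in intestinal subepithelial myofibroblasts, contractile stromal cells found beneath the lining of the gut, grown from the small bowel of BALB/c mice of wild type. The stimulated group is 1 array of myofibroblasts that spent 1 day with homogenised intestinal eosinophils, at 5 mg/ml. The non-stimulated group is 1 array of the same kind of cells kept for the same time without homogenate. Each condition was cultured in triplicate and its RNA pooled before labelling, so that no replicate error exists, no test between the conditions is possible and every value below describes these 2 pools. The sources used here do not give the age or number of the mice. In a pool of cells, more cells in S phase and more transcript per cell cannot be told apart.

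Copying DNA starts at origins, which the origin recognition complex marks and where Cdc6 and Cdt1 load the ring-shaped MCM helicase in G1. In S phase Cdc45 and the GINS complex join the ring to form the active helicase, polymerases extend primers, the sliding clamp PCNA holds them on DNA, and nucleases and a ligase join the lagging-strand pieces. Many of these genes are known targets of E2F transcription factors, which the retinoblastoma proteins hold in check until cyclin-dependent kinases release them, and their transcripts are more abundant in dividing than in resting fibroblasts.

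The deposited values are on a log2 scale, on which a step of 1 is 2-fold. Olfactory and vomeronasal receptor genes, which fibroblasts are not expected to use, gave a background level, the 95th percentile of their 1407 probesets. It lay at 5.57 on the stimulated and 5.58 on the non-stimulated array. Over all genes 14068 passed it on at least 1 array. All 13 fibroblast markers did so on both arrays, led by Fn1 at 13.31 on the stimulated and 13.28 on the non-stimulated array. A label field names eosinophils as the source of both samples, but few eosinophil markers passed. Of 9 on the array 1 passed on the stimulated array (Alox15) and 2 on the non-stimulated array (Alox15 and Cebpe). Epx and Prg2, which encode granule proteins, passed on neither. Of 10 pan-leukocyte markers 5 passed on the stimulated and 4 on the non-stimulated array. The highest of them, Cd53, lay well above background, at 9.56 on the stimulated and 9.73 on the non-stimulated array. Of 10 macrophage markers 3 passed on each array, of 10 epithelial markers 4 on each and of 7 endothelial markers 3 on each.

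Nearly all measured replication genes read above background in both pools, and their values moved little between them. Of the 37 measured members 36 passed background, all of them on both arrays. Of all 22180 genes 14068 passed on at least 1 array and 13190 on both. A mean within 1 log2 unit of background was seen in 11 of the 36 members, against 4485 of the 14068 genes. With the homogenate 23 of 36 members read higher (63.9%), against 50.2% of all genes above background. Another 12 read lower (33.3%), against 48.2% of all genes, and Chaf1a had the same value on both arrays. The median difference (stimulated minus non-stimulated) was 0.029 over the members and 0.002 over all genes. The middle of the distribution, from the 25th to the 75th percentile, ran from -0.041 to 0.13 for the members and from -0.099 to 0.099 for all genes.

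Differences of the members were of the size that all genes showed between these 2 arrays. A difference of at least 0.2, or 1.15-fold, was seen upwards in 4 of 36 members (11.1%), against 10.1% of all genes, and downwards in 2 of 36 (5.56%), against 11.4% of all genes. The 4 were Prim1, Rfc3, Mcm6 and Rfc1 and the 2 were Ung and Tk1. No member reached 1.5-fold in either direction, as 0.796% of all genes did upwards and 0.64% downwards. At a smaller step of 0.1, 11 members read higher (30.6%), against 24.9% of all genes, and 7 read lower (19.4%), against 24.8%.

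**Figure D1:**
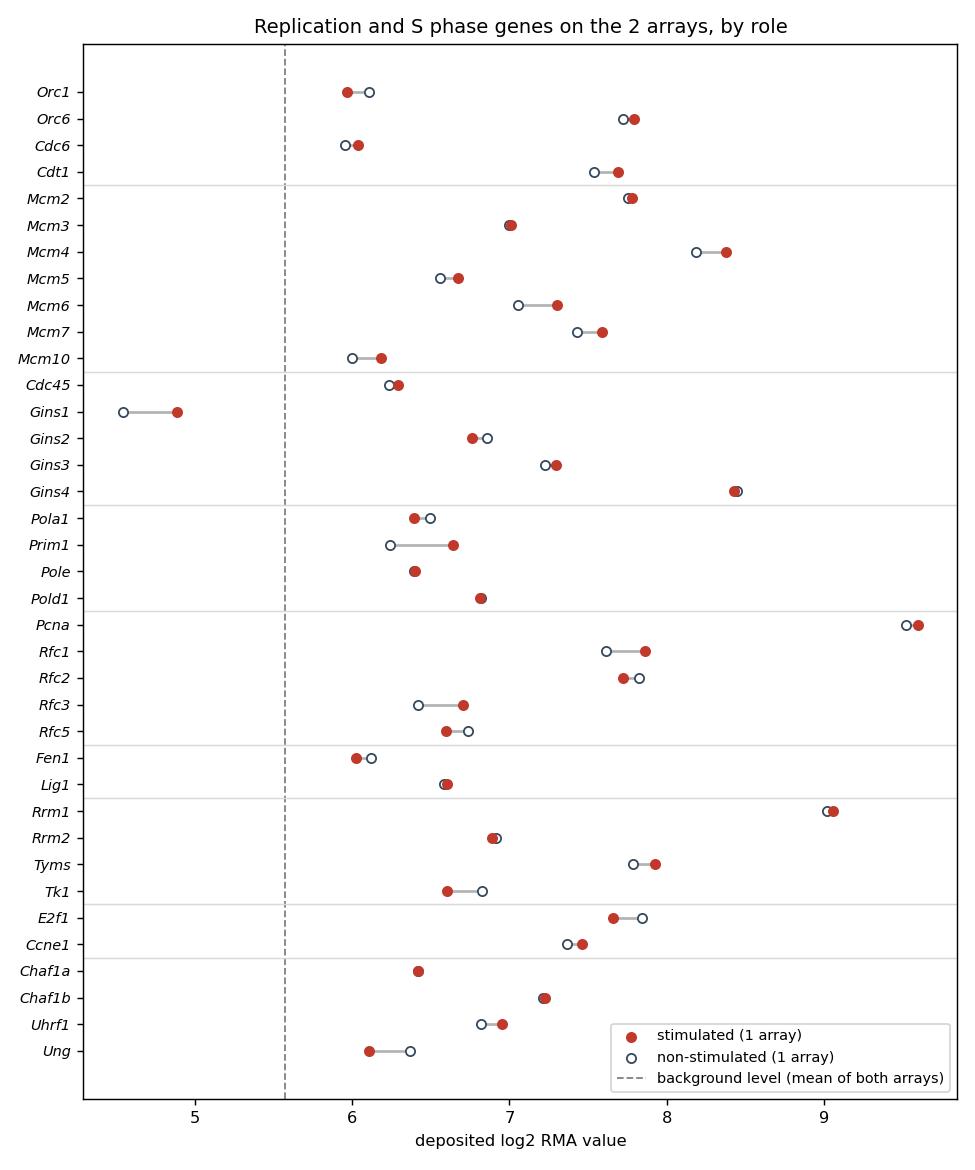
Deposited log2 values of the 37 measured genes, in rows grouped by role, on the stimulated array (filled) and the non-stimulated array (open); the dashed line is the mean of both background levels. Gins1 lies left of the line on both arrays and the other 36 genes lie right of it, with the marks of most genes close together.

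The MCM genes were the role in which every member read higher with the homogenate. MCM2 to MCM7 form the hexameric ring that unwinds DNA, and MCM10 helps turn the loaded ring into a working fork. All 7 MCM genes had positive differences, between 0.012 and 0.25, with a median of 0.16, beside 0.002 for all genes and the 50.2% of all genes that read higher. Of the 7, 5 were higher by at least 0.1, beside 24.9% of all genes, and 1 by at least 0.2. These genes are known to be transcribed together, so they are not independent readings.

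Mcm6 read 7.30 on the stimulated and 7.05 on the non-stimulated array, a difference of 0.25 or 1.19-fold. Mcm4 read 8.37 on the stimulated and 8.18 on the non-stimulated array, which is 0.19 apart and just under the 0.2 step. Mcm10 read 6.19 on the stimulated and 5.997 on the non-stimulated array, also 0.19 apart, but it lay close to background. These were the upper members of the group. Mcm7 read 7.59 on the stimulated and 7.43 on the non-stimulated array, and Mcm5 read 6.67 on the stimulated and 6.56 on the non-stimulated array. Mcm2 read 7.78 on the stimulated and 7.76 on the non-stimulated array. Mcm3 was nearly level, at 7.011 on the stimulated and 6.999 on the non-stimulated array. Thus subunits that act in 1 ring differed among themselves by more than 0.2 in this quantity. Another probeset, which Mcm7 shares with the microRNA gene Mir25 inside it, read 6.86 on the stimulated and 6.90 on the non-stimulated array, opposite in sign to the Mcm7 probeset.

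The factors that mark origins and load the MCM ring were split. Cdt1, a loading factor, read 7.69 on the stimulated and 7.54 on the non-stimulated array, a difference of 0.15. Cdc6, the loading ATPase, read 6.04 on the stimulated and 5.96 on the non-stimulated array. Orc6, the smallest subunit of the origin recognition complex, read 7.79 on the stimulated and 7.72 on the non-stimulated array. These 3 were higher with the homogenate. Orc1, the large ATPase subunit whose transcript follows E2F, read 5.97 on the stimulated and 6.10 on the non-stimulated array, lower by 0.14.

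Cdc45 and the GINS genes, whose products complete the helicase, showed no common direction. Cdc45 read 6.29 on the stimulated and 6.23 on the non-stimulated array, and Gins3 read 7.30 on the stimulated and 7.22 on the non-stimulated array. Gins2 read 6.76 on the stimulated and 6.86 on the non-stimulated array, and Gins4 read 8.43 on the stimulated and 8.45 on the non-stimulated array. The 4 genes thus lay within 0.1 of no difference, 2 on each side. Gins1 was under background on both arrays, at 4.89 on the stimulated and 4.54 on the non-stimulated array, so no fold is given for it.

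**Figure D2:**
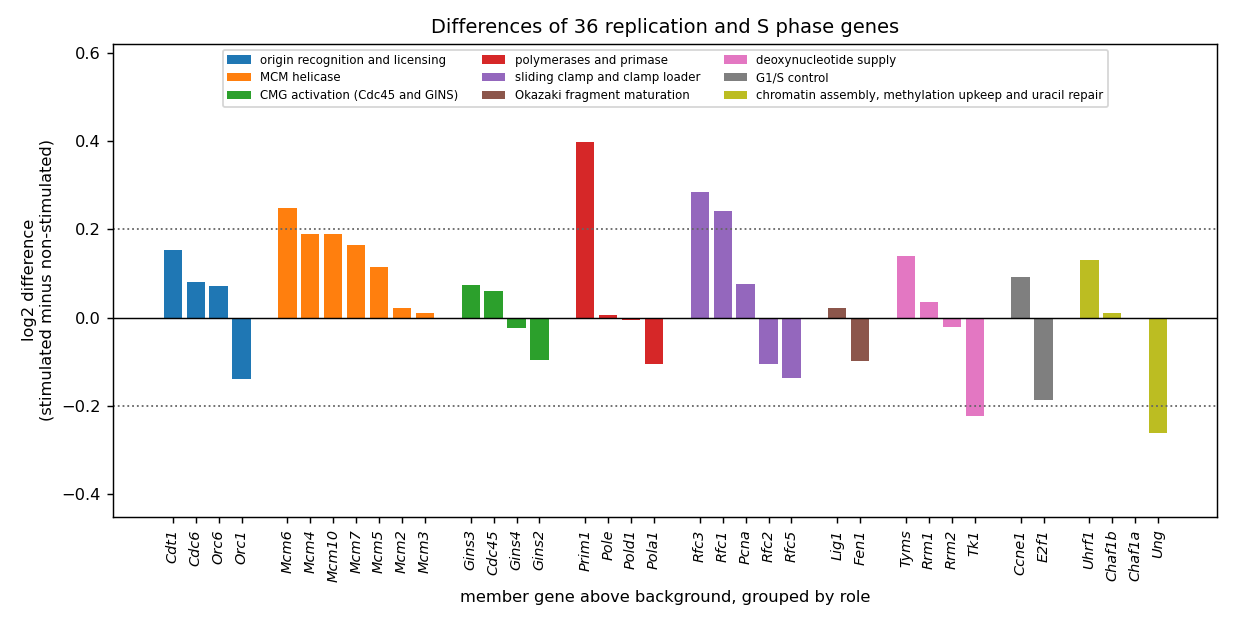
Log2 difference, stimulated minus non-stimulated, of the 36 genes above background, as bars grouped and coloured by role; dotted lines mark 0.2 in each direction. All 7 MCM bars point up, while most other roles hold bars in both directions, and Prim1 at 0.40 is the tallest.

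Among the polymerase genes 1 stood out. Prim1, the catalytic subunit of the primase that lays down RNA primers, read 6.64 on the stimulated and 6.24 on the non-stimulated array, a difference of 0.40 or 1.32-fold. It lay only 1.07 above background on the stimulated and 0.66 on the non-stimulated array. Of all genes above background 2.14% had a larger difference. Prim1 was the only member outside the central 95% of differences among genes of like level, which for its set of genes ran from -0.39 to 0.36. By construction 2.5% of all genes lie above such a range, so that 1 of 36 members is close to that share. Its partners in the polymerase alpha and primase complex had smaller differences of either sign. Pola1, the catalytic subunit of polymerase alpha, read 6.39 on the stimulated and 6.496 on the non-stimulated array, lower by 0.10. The other 2 subunits, which are not among the 39 genes and are named after their values were seen, were higher, Prim2 by 0.16 and Pola2 by 0.11. Pole, of the leading-strand polymerase epsilon, read 6.40 on both arrays, and Pold1, of the lagging-strand polymerase delta, read 6.82 on both.

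The subunits of the clamp loader lay on both sides of 0. Pcna read 9.60 on the stimulated and 9.52 on the non-stimulated array, a difference of 0.075. The loader RFC is a pentamer that opens the clamp and places it on DNA. Rfc3 read 6.71 on the stimulated and 6.42 on the non-stimulated array, a difference of 0.29 or 1.22-fold, and Rfc1, the large subunit, read 7.86 on the stimulated and 7.62 on the non-stimulated array, a difference of 0.24 or 1.18-fold. Rfc2 read 7.72 on the stimulated and 7.82 on the non-stimulated array, and Rfc5 read 6.60 on the stimulated and 6.74 on the non-stimulated array. Of the 4 measured subunits of this pentamer, 2 were thus higher by at least 0.2 and 2 were lower by at least 0.1.

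The genes that finish lagging-strand pieces differed little. Fen1, the flap nuclease, read 6.03 on the stimulated and 6.12 on the non-stimulated array. A further Fen1 probeset, at 5.94 on the stimulated and 5.96 on the non-stimulated array, had the same sign and a smaller difference. Lig1, the replicative DNA ligase, read 6.61 on the stimulated and 6.58 on the non-stimulated array.

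Genes of deoxynucleotide supply lay on both sides of 0. Ribonucleotide reductase, which makes deoxynucleotides from ribonucleotides, had its large subunit Rrm1 at 9.05 on the stimulated and 9.02 on the non-stimulated array. Its S phase subunit Rrm2 read 6.89 on the stimulated and 6.91 on the non-stimulated array. Neither subunit differed by as much as 0.04. Tyms, the thymidylate synthase, read 7.93 on the stimulated and 7.79 on the non-stimulated array, a difference of 0.14. Tk1, the thymidine salvage kinase, read 6.61 on the stimulated and 6.83 on the non-stimulated array, a difference of -0.22, or 1.17-fold lower. The 2 sources of thymidine nucleotides thus had opposite signs.

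The genes that control entry into S phase gave no common direction. E2f1, an activating member of the E2F family, read 7.66 on the stimulated and 7.84 on the non-stimulated array, a difference of -0.19 and next below the 0.2 step. Ccne1, cyclin E1, which activates Cdk2 at the G1/S boundary, read 7.46 on the stimulated and 7.37 on the non-stimulated array.

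The last group works on the chromatin and bases of the new strands. Ung, the glycosylase that removes uracil from DNA, read 6.11 on the stimulated and 6.37 on the non-stimulated array, a difference of -0.26 or 1.199-fold lower, the lowest of the members. Uhrf1, which guides the maintenance methyltransferase to new DNA, read 6.95 on the stimulated and 6.82 on the non-stimulated array. The chromatin assembly factor genes were level, with Chaf1b at 7.23 on the stimulated and 7.21 on the non-stimulated array. Chaf1a had 6.42 on both arrays, with the deposited values identical, as 1.61% of all genes had.

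The spread between the arrays depended on level. With the genes cut by level into 4 equal sets, in the dimmest set the central 95% of differences ran from -0.51 to 0.48, in the next from -0.39 to 0.36, in the third from -0.29 to 0.32 and in the brightest from -0.25 to 0.29. The members fell mostly in the lower middle, with 6, 18, 10 and 2 in these sets. Within their set 35 of 36 lay inside the central 95%, among them all 7 MCM genes, Rfc3, Rfc1, Ung and Tk1.

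**Figure D3:**
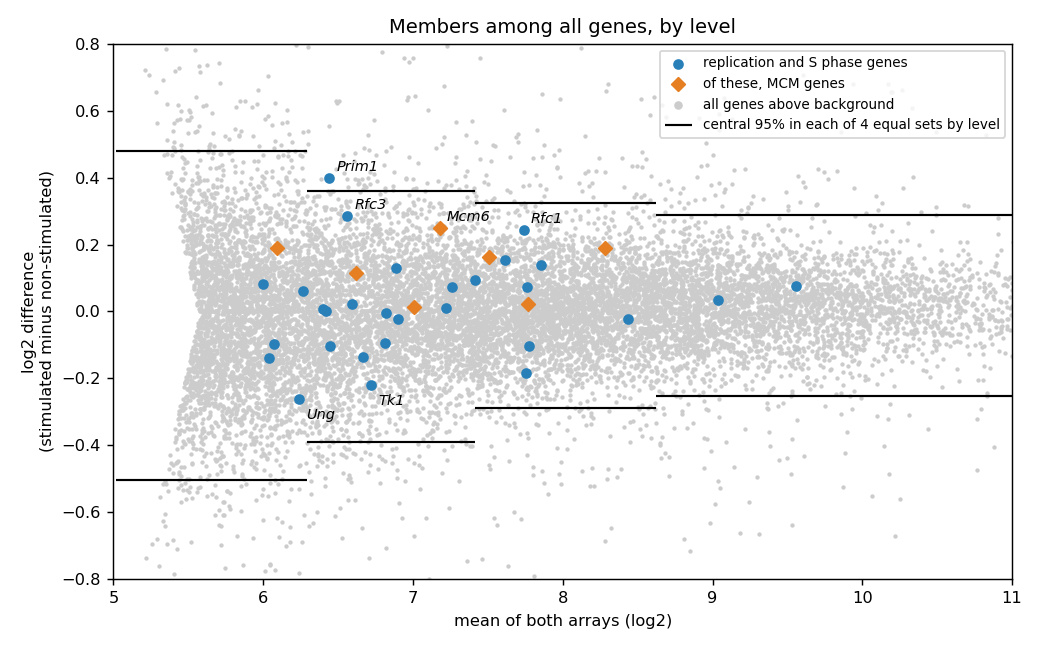
Log2 difference (stimulated minus non-stimulated) against the mean of both arrays for replication and S phase genes (blue circles; MCM genes as orange diamonds) and all genes above background (grey); black lines bound the central 95% of differences in each of 4 equal sets by level. Prim1 alone of the members lies past a line, and 387 genes fall outside the axes drawn.

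Other genes of the same machinery also had small differences, more of them upwards than downwards. Over all genes above background, the measure for each list below, 50.2% read higher and 48.2% lower. Of all genes 10.1% were higher and 11.4% lower by at least 0.2. The remaining subunits of the same complexes include Orc2 to Orc5, the small polymerase subunits and the single-strand binding proteins. They had 18 genes above background, of which 12 read higher (66.7%) and 6 lower, with a median of 0.080. Of the 18, 1 was higher by at least 0.2 (5.56%) and none lower. The largest differences were those of Pole4 (0.22), Orc5 (0.17) and Orc3 (0.16). Origin firing and fork factors had 11 of 17 higher (64.7%) and 6 lower, with a median of 0.036. Past 0.2 were 3 genes (17.6%), all higher. They were Wdhd1, a polymerase alpha anchor, at 6.86 on the stimulated and 6.54 on the non-stimulated array, Mcm9, an MCM relative of the repair machinery, which was higher by 0.297, and Cdc7, the kinase that fires origins, which was higher by 0.275.

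The wider E2F and RB list had 13 of 22 genes higher (59.1%) and 9 lower, with a median of 0.057. Of the 22, 2 were higher by at least 0.2 (9.09%) and none lower, against 10.1% and 11.4% of all genes. Cdc25a, the phosphatase that activates Cdk2, read 7.21 on the stimulated and 6.84 on the non-stimulated array, 1.29-fold higher. It was the 1 gene of this list outside the central 95% of genes of like level. E2f8, a repressive E2F, was higher by 0.21, and Ccnd3, a D-type cyclin, was lower by 0.18. Genes of nucleotide supply outside the members were balanced, with 5 of 12 higher (41.7%) and 6 lower and a median of -0.032. Among them Ctps, the CTP synthase, was higher by 0.28, while Dut, the dUTPase, was lower by 0.22 and Cad, of pyrimidine synthesis, by 0.16.

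Inhibitors of cyclin-dependent kinases had 3 of 7 genes higher (42.9%) and 4 lower, with a median of -0.033. Cdkn1c, which encodes p57, read 6.78 on the stimulated and 7.23 on the non-stimulated array, a difference of -0.45 or 1.37-fold lower and outside the central 95% of genes of like level. Cdkn2d and Cdkn2b were lower by 0.14 and 0.13.

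S phase genes of repair and chromatin had 16 of 20 genes above background higher (80%), against 50.2% of all genes. Another 3 were lower and 1 level, with a median of 0.094. In this list 3 genes (15%) were higher by at least 0.2 and 1 (5%) was lower, against 10.1% and 11.4% of all genes. Chek1, the checkpoint kinase that guards forks, read 6.43 on the stimulated and 6.09 on the non-stimulated array, Atad2 was higher by 0.26, and Fancd2 of the Fanconi anaemia pathway was lower by 0.23.

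Mitosis genes, which are transcribed later in the cycle, had larger upper members than the replication genes. Of 28 above background 18 read higher (64.3%) and 10 lower, close to the 63.9% of the replication genes. Differences of at least 0.2 upwards were seen in 7 of the 28 (25%), against 11.1% of the replication genes and 10.1% of all genes, and in none downwards. The motor gene Kif23 was higher by 0.45, the mitotic kinase gene Aurka by 0.41 and the motor gene Kif11 by 0.40. These 3 of the 28 lay above the central 95% of genes of like level, as 2.5% of all genes did. With 1 array per condition the difference between the replication and the mitosis genes was not tested.

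**Figure D4:**
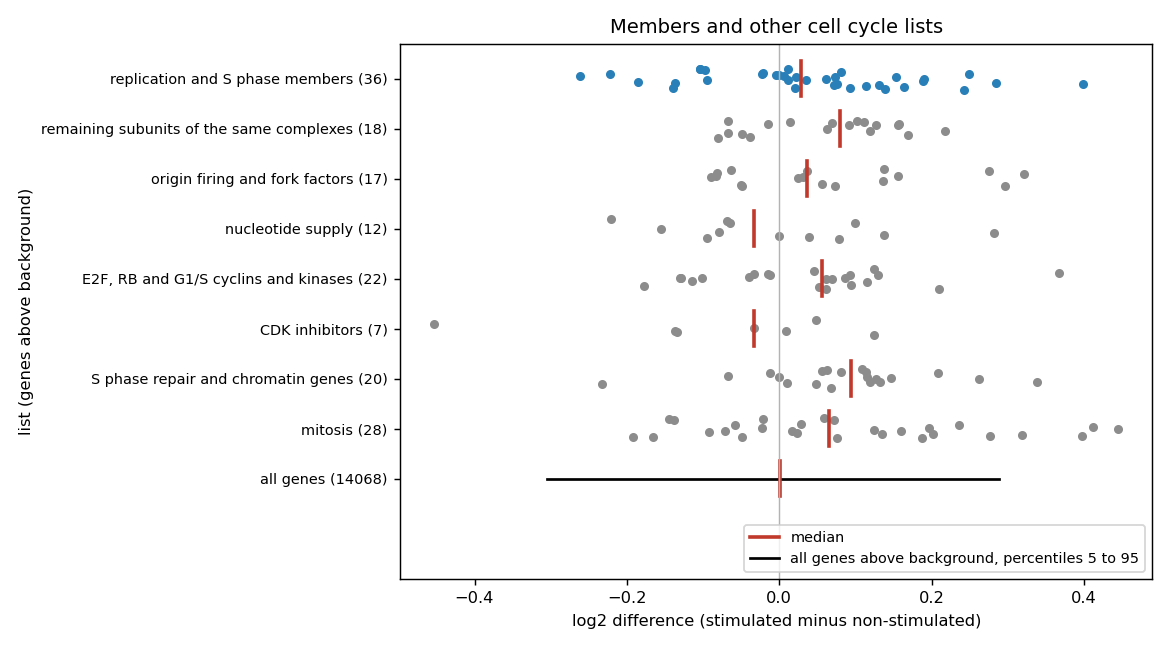
Log2 difference, stimulated minus non-stimulated, of each gene above background in the replication and S phase members (blue) and in 7 other cell cycle lists (grey), with the number of genes in brackets and the median as a red line; the bottom row spans the 5th to 95th percentile of all 14068 genes. List medians lie between -0.033 and 0.094, and the mitosis genes reach furthest up, to 0.45.

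Promoter sequence was not itself used to choose the genes. Many of them are known E2F targets, however, so their share of E2F words is not independent of that choice. RefSeq promoter windows of the GRCm38.p6 build, from 250 bases before to 50 bases after a transcription start, were at hand for 32 of the 39 genes. Both strands were searched for the 8-letter E2F words TTTGGCGC, TTTCCCGC, TTTCGCGC and TTTGCCGC. They were found in 13 of 32 members (40.6%), against 2.60% of 27025 genes with a window and 4.36% of 10956 such genes above background on the arrays. The 13 were Orc1, Cdc6, Cdt1, Mcm3, Mcm5, Mcm6, Mcm7, Gins3, Pola1, Pold1, Rfc3, Lig1 and Uhrf1, so that 4 of the 6 MCM genes with a window held a match. With the first T dropped, which gives 7-letter words that every 8-letter match contains, 21 of 32 members (65.6%), 10.9% of all genes and 17.9% of those above background on the arrays matched.

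The windows of mitosis genes looked different. The E2F words stood in 1 of 26 of them (3.85%). TTTGAA, the letters of the cell cycle homology region of mitotic promoters, stood in 19 of 26 (73.1%). It stood in 4 of 32 replication genes (12.5%), 20.2% of all genes and 13.9% of those above background on the arrays. The mitosis genes were also chosen by name, so their share of letters known from mitotic promoters is not independent of that choice. The CCAAT letters, bound by NF-Y, were found in 19 of 32 replication genes (59.4%), 19 of 26 mitosis genes (73.1%), 41.1% of all genes and 41.7% of those above background. The GC box letters GGGCGG were in 25 of 32 replication genes (78.1%), 21 of 26 mitosis genes (80.8%), 38.2% of all genes and 65.2% of those above background on the arrays. A match describes letters in a window and is no evidence of binding.

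The order of the median differences of members with and without E2F words depended on the words searched. Of the 13 with a match 10 read higher with the homogenate, with a median of 0.082, and of 18 measured members with a window but no match 11 read higher, with a median of 0.028. With the 7-letter words the medians were 0.054 in 20 members with a match and 0.062 in 11 without.

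The 200 bases before the start are shown for 5 genes whose window begins at the outer end of the gene record: the 3 highest such members, Prim1, Rfc3 and Mcm6, then Gins3, the other such member with a match before its start, and Rfc5, the lowest such member. Letters are those of the coding strand, 5′ to 3′, and capitals mark the 8-letter E2F words on either strand. Prim1 lies at chr10:128015015-128015214 on the plus strand, Rfc3 at chr5:151651209-151651408 on the minus strand, Mcm6 at chr1:128359706-128359905 on the minus strand, Gins3 at chr8:95633359-95633558 on the plus strand and Rfc5 at chr5:117389024-117389223 on the minus strand.
Prim1: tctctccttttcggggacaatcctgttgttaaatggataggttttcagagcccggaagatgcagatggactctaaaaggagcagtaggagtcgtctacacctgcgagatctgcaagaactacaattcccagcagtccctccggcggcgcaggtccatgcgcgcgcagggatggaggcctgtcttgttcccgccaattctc
Rfc3: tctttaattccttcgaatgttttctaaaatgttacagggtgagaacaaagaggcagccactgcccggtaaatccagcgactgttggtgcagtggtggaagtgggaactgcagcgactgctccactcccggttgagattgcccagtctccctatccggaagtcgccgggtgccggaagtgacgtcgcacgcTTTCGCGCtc
Mcm6: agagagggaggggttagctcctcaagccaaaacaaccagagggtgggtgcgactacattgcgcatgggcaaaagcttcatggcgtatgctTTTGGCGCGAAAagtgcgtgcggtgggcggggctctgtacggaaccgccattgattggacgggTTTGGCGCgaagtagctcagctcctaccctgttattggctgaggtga
Gins3: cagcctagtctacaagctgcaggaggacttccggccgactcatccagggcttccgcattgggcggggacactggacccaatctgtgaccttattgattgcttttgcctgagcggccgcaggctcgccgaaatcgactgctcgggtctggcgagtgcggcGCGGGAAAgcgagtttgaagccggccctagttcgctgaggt
Rfc5: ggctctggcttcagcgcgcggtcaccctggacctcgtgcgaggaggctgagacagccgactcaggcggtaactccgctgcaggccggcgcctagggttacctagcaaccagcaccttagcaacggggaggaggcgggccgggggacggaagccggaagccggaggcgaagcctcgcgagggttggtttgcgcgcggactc

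Mcm6 carried 3 matches before its start, a pair that overlaps on opposite strands from -110 to -99 and another from -47 to -40 (bases counted from the start, with -1 the base before it). Rfc3 carried 1 from -10 to -3, and another just after its start. Gins3 carried 1 on the opposite strand from -41 to -34, at a difference of 0.073 between the arrays. Prim1, with the largest difference of the members, and Rfc5, which read lower, carried none of the 8-letter words. Of the 7-letter words Prim1 carried 1, from -15 to -9, and Rfc5 none.

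**Figure D5:**
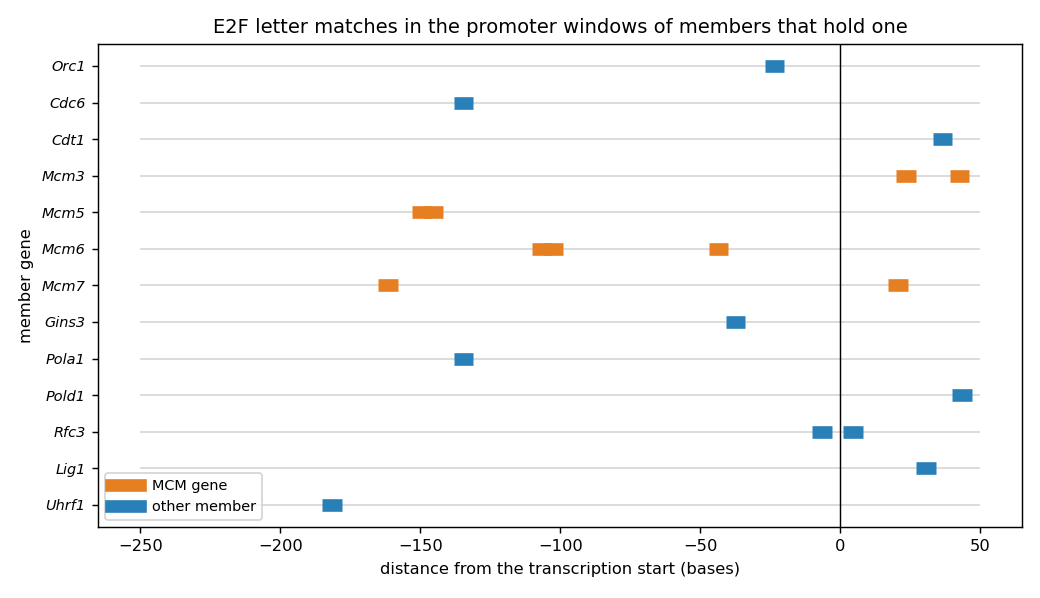
Position of each 8-letter E2F word, in bases from the transcription start, in the promoter windows of the 13 members that hold one; orange marks MCM genes and blue the others. A negative position is before the start. Matches stand both before and after the start, between -185 (Uhrf1) and 47 (Pold1).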

How the data were processed

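The authors deposited log2 values for each probeset. RMA in Affymetrix Expression Console made them, per the submitters' processing notes, which name no version or build here. RMA sets arrays to one distribution (sorted values were at most 0.0757 apart), which removes any overall shift between them. Per the labels' protocols, RNA was extracted with Trizol, amplified and biotin-labelled.

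Of 41345 probesets, 23521 were paired with 1 gene by the platform annotation, 1814 with several and 16010 with none. Gene identifiers of 23328 matched RefSeq (GRCm38.p6), which gave current symbols. Differences are stimulated minus non-stimulated. With 1 array per condition no p-value was computed. Alternatives were no filter or other backgrounds, means of probesets, differences centred on the median or on a lowess trend (statsmodels 0.14.6), values raised to background, and other steps.

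The members, lists and steps were chosen with earlier results of these data known. Named from each other list were the 3 genes above background with the largest difference, and from the marker lists the highest gene where a value is given. Script tests covered the recovery of shifts added to permuted differences of these data, and the choice of probeset. Promoter windows began at the outer end of the gene record in 21 of 32 members and up to 3749 bases inside it in 11. Mcm4, Gins1, Gins2, Gins4, Pole, Rfc2 and Ccne2 had no window. The number of arrays limits the precision.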

Additional observations from a re-analysis of the deposited data

Results flagged for a closer look

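Probesets that a member shares with a neighbouring gene were outside the comparisons. Listed here are those above background that read higher on the stimulated array, as 50.2% of all genes above background did. They belong to Ccne2 and Rfc4, the only members without a value of their own. The probeset shared by Mcm7 and Mir25 was also above background and read lower, by -0.037. The probeset shared by Ccne2 (cyclin E2) and Ints8 read 6.66 on the stimulated and 6.48 on the non-stimulated array, a difference of 0.18. The probeset shared by Rfc4 (a clamp loader subunit) and Eif4a2 read 6.87 on the stimulated and 6.82 on the non-stimulated array, a difference of 0.045. Neither value can be given to 1 of the genes.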

How the results depend on the processing

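No paired analysis was possible because each condition has 1 array. Against 23 of 36 members reading higher, the 7 alternatives gave counts from 17 of 24 to 25 of 36. The number of members counted differs between alternatives. Several kept the same 36 members with nearly the same differences, so they could hardly move the count. The share of all genes reading higher ran from 47.3% with no filter to 53.2% at the 99th percentile background. That last setting gave the 17 of 24. All MCM genes counted read higher in each alternative (alternatives chosen after seeing the data for the MCM genes). They were 7, or 6 with the background at the 99th percentile. Each MCM gene has 1 probeset of its own and passed background on both arrays. Several alternatives therefore left its difference unchanged and are no further support. Counts follow the step: 11 members were higher and 7 lower at 0.1, and 1 higher and 0 lower at 0.3, where 0.2 gave 4 and 2. With the background at the 99th percentile, which leaves 24 members, 3 were higher and 1 was lower by at least 0.2. The share of all genes past the step was not computed at 0.3 or at this background. These counts therefore stand without a comparison. Prim1 lies under that background on both arrays and is not counted there. The median difference of the members there was 0.072 in place of 0.029, with fewer genes tested, and the median of all genes there was not computed. The other alternatives gave medians between 0.027 and 0.040. The 8-letter E2F words matched 13 members and the 7-letter words 21, also chosen after seeing the data. Averaging probesets, which affects Pole, Fen1 and Rrm2, left Rrm2 under background and moved the difference of Pole from 0.0065 to -0.0385. No difference of a member past 0.2 changed its sign. Averaging, which shifted members most, did so by -0.045 to 0.0388, too little to change such a sign. Signal close to background limits Orc1, Cdc6, Mcm10 and Fen1 most.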
